A study of Bos taurus with 96 samples.

Results

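The genes described here had a lower read count in liver and a higher read count in muscle on the day after calving than at the other time-points. They were chosen from these same libraries. Counts were scaled to the library total as CPM, which gives each library the same total, and the 10423 genes with a mean of at least 1 CPM in each tissue were kept out of 24616 identifiers. For each gene 4 differences of log2(CPM + 1) were averaged over cows, late pregnancy (LP) minus early lactation (EL) and mid-lactation (ML) minus EL in liver, and EL minus LP and EL minus ML in muscle. The 100 genes with the largest minimum of these 4 values are the members. The 4 values are therefore a description of the choice and were not tested on the members.

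Liver and semitendinosus muscle biopsies came from 16 Holstein cows kept as a single herd, in first or second parity. Their genetic merit for fertility was good in 8 (Fert+) and poor in the other 8 (Fert-). Each cow was sampled in both tissues at LP, at EL, which was the day after calving, and at ML, which gave 96 libraries in 12 groups of 8. Library totals ran from 14966847 to 26358063 counts in liver and from 15279337 to 22018740 in muscle. The cows were not bred during the sampled lactation. Time-point and stage of gestation or lactation cannot be told apart in this design. A subset of 13 libraries (8 liver, 5 muscle) stood apart by counts at 19 genes that were nearly empty in the others. Hepatocyte markers were present in liver, with 9 of 9 listed identifiers at 1 CPM or more, and muscle fibre markers in muscle, with 11 of 11.

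After calving a dairy cow enters negative energy balance, mobilizes fat and raises hepatic glucose output. Liver is the main site of cholesterol synthesis, of aldehyde and xenobiotic oxidation and of acute-phase protein secretion, and muscle turns from glucose to fatty acids as fuel and releases amino acids. A gene whose level moves in opposite directions in these tissues is thus seen against very different backgrounds. A biopsy holds several cell types, and fewer cells of a type and less RNA per cell cannot be told apart in these libraries.

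Symbols were known for 38 of the 100 members and for 2237 of all identifiers. These symbols come from the study's own gene tables, which name only part of the genes, so the named members are not an even sample of the set. The highest-ranked members were ENSBTAG00000012972, with a minimum of 0.75, and ENSBTAG00000009362, with a minimum of 0.63, for which no symbol was known. The members at the threshold were PFN2, an actin-binding profilin, at 0.2973, and CRYL1, an L-gulonate dehydrogenase, at 0.2973, and the nearest genes left out had minima of 0.2969 and 0.2960. The threshold therefore falls within a continuum of values.

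Over the 100 members the liver fall had a median of 0.42 against LP and 0.52 against ML, and the muscle rise a median of 0.56 against LP and 0.65 against ML, all on the log2(CPM + 1) scale. The same medians over the 10423 kept genes were -0.04 (LP) and 0.02 (ML) for liver, and for muscle they were 0.36 (LP) and 0.39 (ML). Most genes thus rose in muscle on this scale. In liver the 9 hepatocyte markers summed to medians of 148466 CPM at LP, 113839 at EL and 138170 at ML, the 5 cholangiocyte markers to 489, 397 and 583 CPM, and albumin took 10.6%, 5.64% and 9.70% of counts. The part of these in the liver fall was not tested. Skeletal alpha-actin (ACTA1), the main thin-filament protein of the fibre, took a median of 3.94% of muscle counts at LP, 0.956% at EL and 4.801% at ML. When counts were scaled by TMM factors, which set aside such dominant genes, the medians of the kept genes in muscle were 0.04 and 0.03, and those of the members were 0.24 and 0.27. All 4 values stayed above 0 for 83 of the 100 members with TMM, and 17 members had a muscle value at or below 0. All 4 values were above 0 in 22.5% of kept genes with library totals and in 10.7% with TMM.

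**Figure D1:**
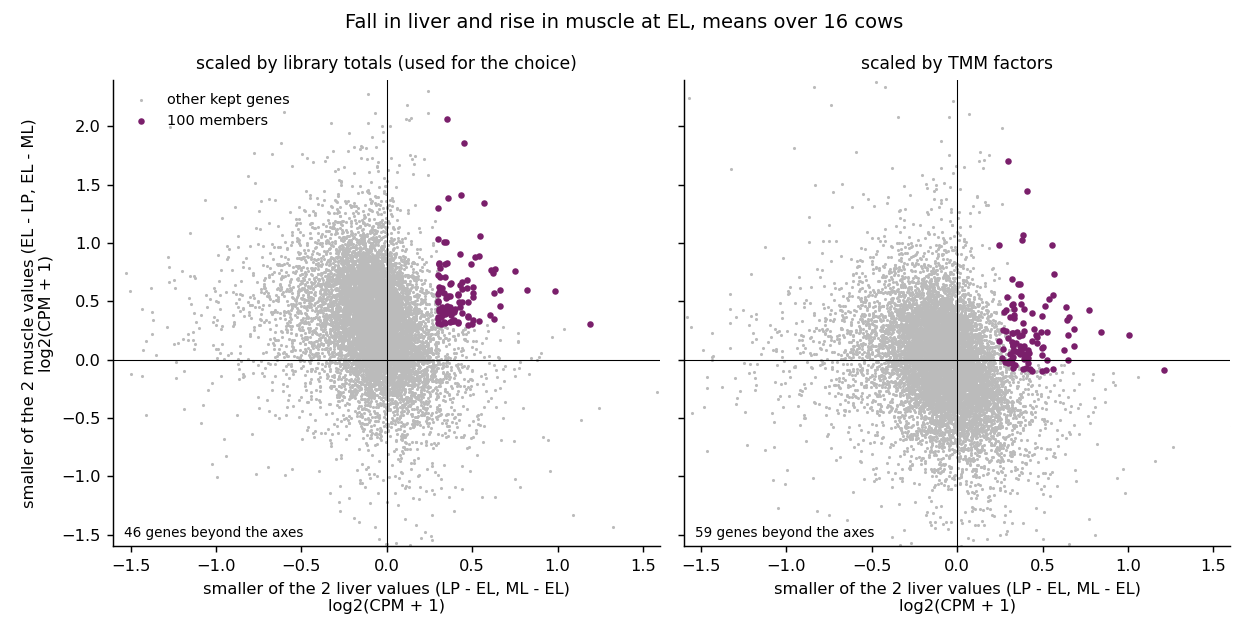
The smaller of the 2 liver values (x axis) against the smaller of the 2 muscle values (y axis), in log2(CPM + 1) averaged over 16 cows, for the 100 members (purple) and the other kept genes (grey), with library totals on the left and TMM factors on the right. With TMM the cloud of all genes moves down towards 0 in muscle and 17 members fall to or below the horizontal line.

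Most members were liver-weighted. The mean CPM was higher in liver than in muscle for 84 of 100 members, against 51.5% of kept genes. Its median over members was 94.1 CPM in liver and 19.7 CPM in muscle, and over kept genes 14.8 and 12.9 CPM. At the ends of the liver-to-muscle ratio HSD17B11, a 17-beta-hydroxysteroid dehydrogenase, was 272 times higher in liver and METTL7B, a methyltransferase-like protein, 195 times. PDK4 and PFN2 were mainly muscle transcripts, with ratios of 0.0548 and 0.0283. The 9 hepatocyte markers summed to between 1.17 and 49.1 CPM in muscle at EL, and to no less than 98503 CPM in liver at EL. Their median sum in muscle was 2.85 CPM at LP, 3.44 at EL and 9.64 at ML. The part of liver RNA in the muscle rise was not tested.

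Catalase (CAT), which breaks down hydrogen peroxide, ran in liver from 3163 to 7744 CPM with a median of 6716 at LP, from 298 to 8147 with a median of 4429 at EL, and from 5628 to 9497 with a median of 7902 at ML. In muscle CAT ran from 169 to 278 CPM (median 201) at LP, from 197 to 428 (median 327) at EL and from 155 to 281 (median 203) at ML. The ranges overlapped between time-points in both tissues. Liver CAT was lower at EL than at LP in 14 of 16 cows and lower than at ML in 15, and muscle CAT was higher at EL than at ML in 16 of 16.

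Aldehyde oxidase (AOX1) had a liver median of 2326 CPM at LP (721 to 2988), 1244 at EL (346 to 2900) and 2659 at ML (1084 to 4241). In muscle its median was 47.2 CPM at LP (34.0 to 132), 76.1 at EL (50.5 to 221) and 56.2 at ML (28.3 to 94.9). All 16 cows had less liver AOX1 at EL than at ML, and the ranges still overlapped. HSD17B4, the bifunctional enzyme of peroxisomal beta-oxidation, had a liver median of 553 CPM at LP (368 to 658), 503 at EL (83.7 to 662) and 668 at ML (483 to 853). The same gene had a muscle median of 25.4 CPM at LP (20.5 to 33.5), 38.4 at EL (23.5 to 59.6) and 24.6 at ML (19.3 to 31.4). ALDH2, the mitochondrial aldehyde dehydrogenase, fell by a mean of 0.35 ± 0.36 (SD, n = 16 cows) against LP and 0.51 ± 0.34 against ML in liver and rose by 0.53 ± 0.36 and 0.53 ± 0.43 in muscle. With TMM its muscle values were 0.18 and 0.12.

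GSTM3, a glutathione S-transferase of the mu class, whose counts depend on how read pairs shared with close copies were placed, had the largest minimum of the named members, 0.62. Its liver median was 149 CPM at LP (87.2 to 243), 102 at EL (19.4 to 202) and 183 at ML (111 to 301). Its muscle median was 64.9 CPM at LP (20.0 to 129), 120 at EL (28.5 to 372) and 71.0 at ML (20.8 to 121). The 16 cows of a muscle time-point thus spread over more than the change between time-points. DCXR, which reduces dicarbonyls and xylulose, had a minimum of 0.47 and AHCY, which removes S-adenosylhomocysteine after methyl transfer, had a minimum of 0.43. With TMM the muscle rise of AHCY was 0.09 against LP and 0.18 against ML.

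Adrenomedullin (ADM), a vasodilator peptide, was a low transcript in both tissues. Its liver median was 5.83 CPM at LP (3.87 to 13.2), 3.52 at EL (1.22 to 11.9) and 8.47 at ML (2.73 to 63.8). Its muscle median was 4.03 CPM at LP (2.60 to 10.6), 7.77 at EL (2.65 to 21.3) and 3.43 at ML (1.88 to 7.74). Muscle ADM was higher at EL than at ML in 15 of 16 cows. It belongs to a list of 25 vascular and hypoxia response genes, of which 8 had an identifier.

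**Figure D2:**
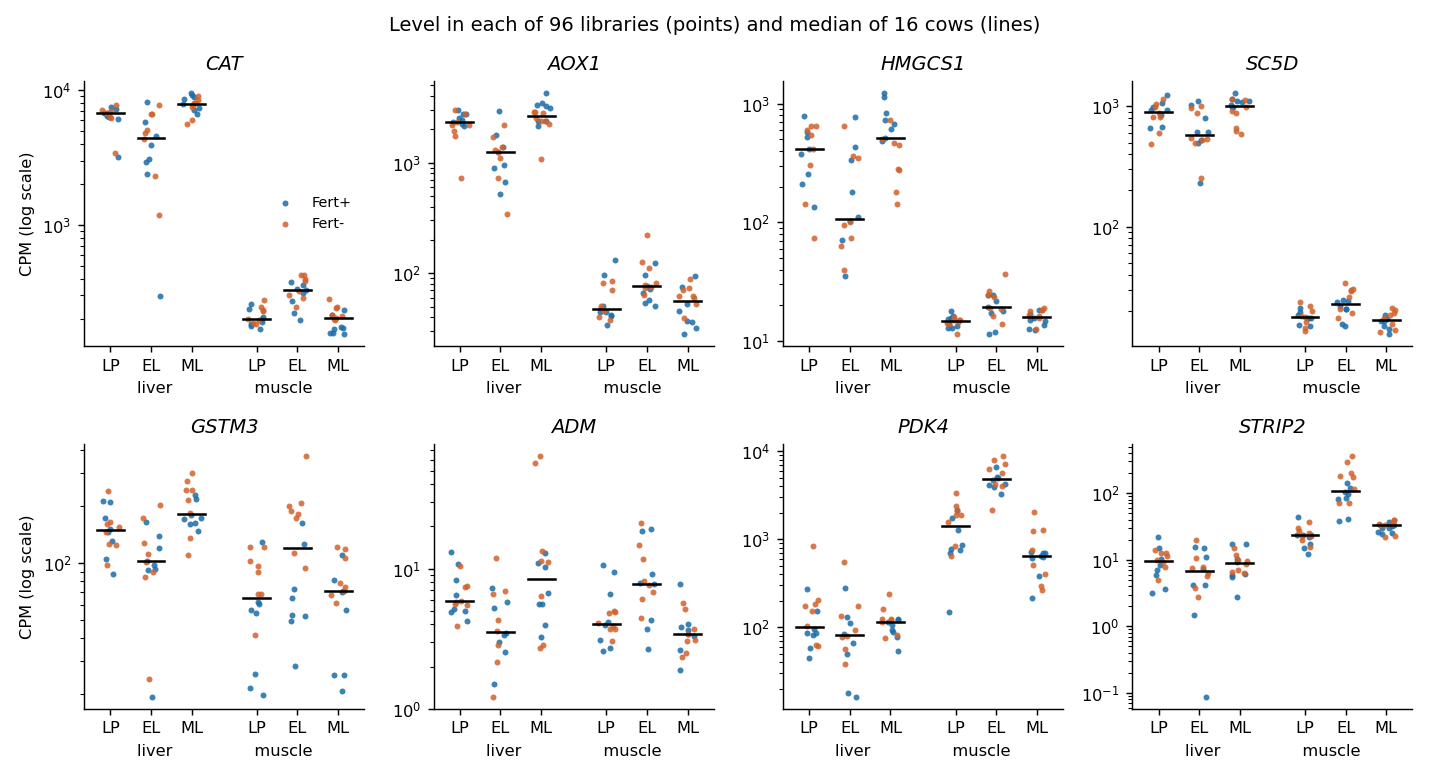
Level in CPM (log axis, a scale of its own for each gene) of 8 members in each of 96 libraries by tissue and time-point, with Fert+ cows in blue and Fert- cows in orange and lines at the median of 16 cows. The liver medians are lowest and the muscle medians highest at EL in every panel, and the points of neighbouring time-points overlap except for muscle PDK4 between EL and ML.

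Cholesterol synthesis genes among the members included HMGCS1, an early enzyme of the pathway, and SC5D, a late sterol desaturase. Liver HMGCS1 had a median of 415 CPM at LP (73.7 to 780), 107 at EL (35.3 to 775) and 511 at ML (142 to 1228), and liver SC5D a median of 903 CPM at LP (482 to 1242), 574 at EL (229 to 1117) and 1008 at ML (583 to 1287). The mean fall of HMGCS1 was 1.19 ± 1.55 against LP and 1.69 ± 1.79 against ML (SD, n = 16 cows), so the spread between cows exceeded the mean. Muscle HMGCS1 had a median of 14.8 CPM at LP (11.4 to 17.9), 19.3 at EL (11.5 to 36.8) and 15.9 at ML (12.5 to 19.1), and muscle SC5D a median of 17.7 CPM at LP (13.6 to 23.6), 22.9 at EL (14.9 to 34.3) and 16.7 at ML (12.8 to 21.2). The ranges of the time-points overlapped for both genes in both tissues.

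The muscle rise of HMGCS1 and SC5D depended on the scaling. With TMM the muscle values of HMGCS1 were 0.07 and -0.09, and those of SC5D -0.004 and 0.04. Across the 16 cows the liver falls of these genes, measured in the same libraries, had Pearson r = 0.75 and Spearman rho = 0.83, and their muscle rises r = 0.63 and rho = 0.54. Cow 33 had the highest liver level of HMGCS1 at EL, 775 CPM.

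Genes of this pathway that lay outside the set went down in muscle. Of a list of 26 cholesterol synthesis and uptake genes, 8 had an identifier and 5 lay outside the set, among them the epoxidase SQLE, the methyl oxidase MSMO1 and the reductase DHCR7. The rule had taken 3 list genes as members because they rose in muscle with library totals. The 5 therefore do not stand for the whole pathway. In muscle 5 of the 5 were lower at EL than at LP, or 4 without cow 3847 (edgeR quasi-likelihood test with TMM and Benjamini-Hochberg adjustment over 12675 genes) and 4 were lower than at ML, with 0 higher. Against LP, MSMO1 was at -0.64 ± 0.10 (log2 fold change ± SE, adjusted p = 8.2e-07), SQLE at -0.61 ± 0.21 (adjusted p = 0.012) and DHCR7 at -0.27 ± 0.12 (adjusted p = 0.046). Over all genes tested 29.1% were higher and 24.8% lower at EL than at LP in muscle, and 31% were higher and 28.5% lower than at ML. In liver 0 of the 5 passed against LP, where 2.27% of genes were higher and 0.977% lower, and 3 were lower against ML, where 20.2% were higher and 18.1% lower. DHCR7 in liver was at -0.87 ± 0.27 against ML (adjusted p = 0.011) and -0.59 ± 0.27 against LP (adjusted p = 0.22).

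**Figure D3:**
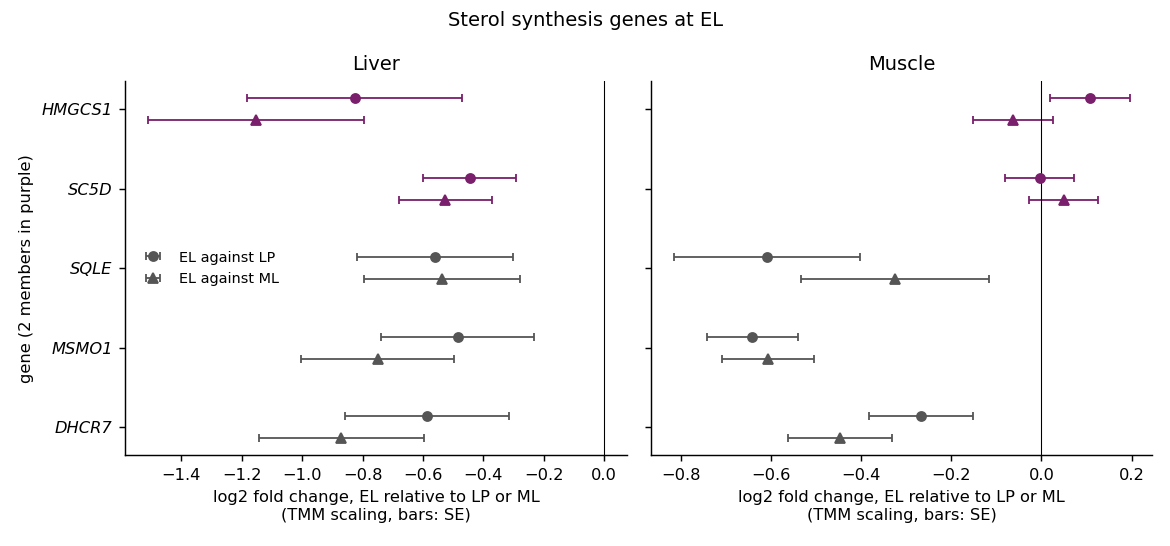
Log2 fold change (x axis, TMM scaling, bars are SE of the fit over 48 libraries) of EL against LP (circles) and against ML (triangles) for 5 sterol synthesis genes, the members HMGCS1 and SC5D in purple and SQLE, MSMO1 and DHCR7 in grey. All 10 liver values lie below 0, and in muscle the grey genes lie below 0 while the members lie between -0.06 and 0.11.

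Pyruvate dehydrogenase kinase 4 (PDK4), which shuts off glucose oxidation in fasting, had the largest muscle rise of the named members against ML, 3.03 ± 0.97, and the next largest after STRIP2 against LP, 2.06 ± 1.04 (SD, n = 16 cows). Muscle PDK4 ran from 149 to 3298 CPM (median 1426) at LP, from 2120 to 8830 (median 4850) at EL and from 215 to 2012 (median 639) at ML, so the EL and ML libraries did not overlap. Liver PDK4 ran from 44.5 to 839 CPM (median 99.5) at LP, from 16.3 to 554 (median 81.7) at EL and from 53.9 to 237 (median 115) at ML. Only 9 of 16 cows had less liver PDK4 at EL than at LP, and 9 less than at ML. The mean liver fall against ML was 0.35 ± 1.09 on the log2(CPM + 1) scale, whereas the log2 fold change of EL relative to ML in the edgeR fit, which weighs the high libraries more, was 0.08 ± 0.36 (SE) and thus of the other sign.

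HADH and ACAA2, which carry out the last steps of mitochondrial beta-oxidation, fell in liver by means of 0.54 ± 0.77 and 0.38 ± 0.62 against LP (SD, n = 16 cows). In muscle they rose by 0.40 ± 0.32 and 0.33 ± 0.28 with library totals, and with TMM by 0.05 for HADH and -0.02 for ACAA2. Of a list of 34 fatty acid oxidation and PPAR target genes 16 had an identifier. Of 12 outside the set and tested, 0 passed in liver against LP and 5 were higher against ML. In muscle 6 were higher and 4 lower against LP (3 and 4 without the 13-library subset), and 5 higher and 4 lower against ML. UCP3, a mitochondrial carrier, was higher in muscle by 0.98 ± 0.24 against LP (adjusted p = 5.3e-04) and the peroxisomal enzyme EHHADH lower by -1.18 ± 0.25 (adjusted p = 1.4e-04).

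The fatty acid transporter SLC27A6 had a muscle median of 17.9 CPM at LP (5.59 to 29.1), 48.7 at EL (11.9 to 115) and 10.6 at ML (6.39 to 29.97), and a liver median of 38.4 at LP (13.5 to 66.7), 30.5 at EL (0.746 to 65.0) and 39.0 at ML (12.2 to 66.0). MID1IP1, which promotes polymerization of acetyl-CoA carboxylase, had a muscle median of 105 CPM at LP (73.3 to 152), 238 at EL (77.0 to 389) and 67.9 at ML (52.8 to 194), and a liver median of 43.0 at LP (3.06 to 84.9), 21.9 at EL (12.6 to 75.2) and 35.7 at ML (5.33 to 103). STRIP2, a component of a phosphatase and kinase scaffold, had a muscle median of 23.3 CPM at LP (12.1 to 43.7), 109 at EL (37.6 to 364) and 33.0 at ML (21.8 to 40.0). Its liver median was 9.66 at LP (3.13 to 21.9), 6.83 at EL (0.0877 to 19.7) and 8.87 at ML (2.76 to 17.3). For these 3 genes the mean muscle change was larger than the mean liver change, and STRIP2 rose in muscle in 16 of 16 cows against either time-point.

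LGMN, a lysosomal protease, had muscle values of 0.82 ± 0.52 against LP and 1.20 ± 0.54 against ML, FAM210B, a mitochondrial protein, 0.88 ± 0.54 and 1.35 ± 0.57, and ITM2B, a membrane protein, 1.01 ± 0.56 and 1.19 ± 0.55. SAT1, which acetylates polyamines and stood on a list of 20 glucocorticoid response genes, had muscle values of 0.35 ± 0.75 and 0.60 ± 0.64, and with TMM 0.005 and 0.21. Of the 9 other identifiers of that list tested in muscle 5 were higher at EL and 0 lower against either time-point. Of 10 in liver 1 was higher against LP and 4 against ML, with 0 lower. The muscle counts and the liver count against ML hold MT1E more than once, with muscle means at EL of 2.27 and 1.34 CPM. Over all genes tested 29.1% and 31% were higher in muscle against LP and ML, and 2.27% and 20.2% in liver. The call against LP in liver was lost with the cow as a block, without cow 3847 and without the 13-library subset (0 called in each). The vascular and hypoxia list gave 1 higher and 2 lower of 7 in muscle against LP, and 2 and 2 against ML. In liver 0 of 6 passed against LP and 3 were higher against ML. CGN, DDAH1, TMBIM6, METTL7B, ENOSF1, CILK1, RNASE4 and ANG, the last 2 being ribonuclease genes that lie together and can share reads, had minima between 0.30 and 0.38. Without cow 3847 the minimum was 0.11 for CGN, 0.13 for DDAH1, 0.13 for METTL7B and 0.14 for CILK1.

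Over all 21 pathway lists, 282 identifiers outside the set were tested in liver and 243 in muscle. In liver 26 were higher and 6 lower at EL than at LP, and 93 higher and 34 lower than at ML. In muscle the counts were 69 and 77 against LP and 69 and 90 against ML. The liver count against LP was 7 higher and 11 lower with the cow as a block, 6 in all without cow 3847 and 0 without the 13-library subset. The last runs are not separate checks, as the liver EL library of cow 3847 belongs to that subset.

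The fall in liver was uneven across cows. The median over the 100 members of LP minus EL in liver ran from -0.65 in cow 426 to 2.33 in cow 3847, with a median of 0.28 over 16 cows, and was above 0 in 12 of 16. That of ML minus EL ran from -0.32 in cow 996 to 2.30 in cow 3847 and was above 0 in 14 of 16. In muscle the members' median was above 0 in 16 of 16 cows against both time-points, from 0.07 to 0.98 against LP and from 0.30 to 1.17 against ML, and it lay above the median of all kept genes in 15 and in 16 cows. For single members, all 16 cows moved in the direction of the rule for 0 and 3 members in liver (against LP and ML) and for 18 and 32 in muscle. Of the 10423 kept genes 0% and 0.345% did so in liver and 20.2% and 28.5% in muscle, so the muscle counts of the members were near those shares. The 16 EL libraries lay apart from the 16 others in the direction of the rule for 0 and 0 members in liver and for 2 and 7 in muscle. Of kept genes 0% and 0% did so for liver, and 3.01% and 6.55% for muscle, again near the members' counts.

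**Figure D4:**
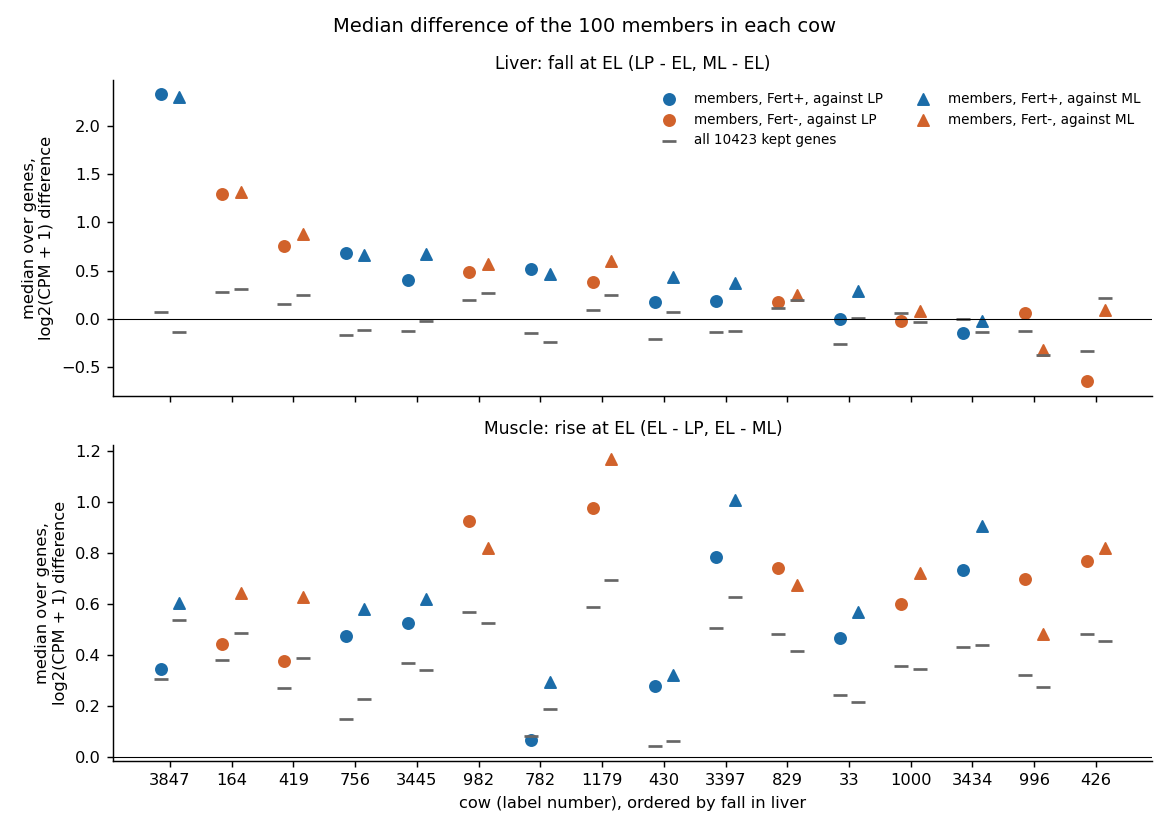
Median over the 100 members of the log2(CPM + 1) difference between EL and LP (circles) or ML (triangles) in each cow, with Fert+ in blue and Fert- in orange and grey dashes at the median of all 10423 kept genes. The liver fall (top) runs from 2.33 in cow 3847 to -0.65 in cow 426, and the muscle rise (bottom) is above 0 in all 16 cows.

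Cow 3847 weighed on the choice of members. Without it the members' median liver fall was 0.29 against LP and 0.41 against ML, all 100 members kept 4 values above 0, and 63 of the 100 were chosen again. Without cows 3847 and 164, 98 members kept 4 values above 0 and 53 were chosen again. Of the 38 named members 16 had a liver or muscle value that was over 1.5 times larger with cow 3847 than without it. The widest change was in PPDPFL, a pancreatic progenitor factor-like gene, whose liver values of 0.52 and 0.44 became 0.17 and 0.11, and whose liver EL library of cow 3847 held 0.614 CPM.

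The liver fall moved with acute-phase transcripts. The summed level of 28 complement and acute-phase genes in liver at EL was 306454 CPM in cow 3847 and 372588 CPM in cow 164, the cows with the largest falls, and 130711, 108856 and 98782 CPM in cows 426, 996 and 3434, where the members' mean of both liver values was below 0. Over 16 cows the fall of the members and this sum had r = 0.84 and rho = 0.85, and r = 0.84 without the 2 cows farthest from the median sum. Both measures come from the same EL libraries. Albumin took 2.42% of liver counts at EL in cow 3847 and 0.793% in cow 164, against 10.6% in cow 426 (r = -0.78, rho = -0.91). The 5 neutrophil markers in liver at EL summed to 119 CPM in cow 3847 and 266 CPM in cow 164, within a range from 14.95 to 266 (r = 0.61, rho = 0.50). The part of these in the fall of the members was not tested.

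The muscle rise moved with the level of all genes and opposite to the fibre transcripts. Across cows the members' median rise and that of all kept genes had r = 0.89 and rho = 0.81. The members' rise and the sum of 11 fibre markers in muscle at EL had r = -0.69 and rho = -0.51, and r = -0.48 without the 2 farthest cows. Both measures come from the same EL libraries. The sum of 11 fibre markers in muscle had a median of 203088 CPM at LP (166770 to 229287), 108232 at EL (54078 to 203774) and 229598 at ML (205603 to 259342). The 5 fibroblast markers summed to medians of 7315, 9449 and 6963 CPM and the 3 endothelial markers to 117, 170 and 111 CPM at LP, EL and ML, whereas the 5 adipocyte markers summed to 781, 305 and 898 CPM. The part of these in the muscle rise was not tested. The fall in liver and the rise in muscle of a member were weakly related across cows, with a median r of -0.14 over members (from -0.71 to 0.61), above 0 for 34 of 100 members and for 54.9% of kept genes.

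Since the rule averaged over genotypes, the choice was repeated within each genotype and read in the other. Of 100 genes chosen on the 8 Fert+ cows 82 had all 4 values above 0 in the Fert- cows, where 43.3% of kept genes had this. Of 100 chosen on the Fert- cows 71 had all 4 above 0 in the Fert+ cows, where 14.9% had. With TMM these counts were 53 against 10.2% and 67 against 12.02%. The genotypes chose 28 genes in common, among them GSTM3, ADM, CAT, AOX1, LGMN, DCXR, STRIP2, HSD17B4 and ALDH2. All of them were members, which follows largely from the rule, as it averages over both genotypes.

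The genotypes were compared at each time-point, to ask whether the level of the members differed with genetic merit for fertility. In liver 0 of 100 members passed at LP, EL or ML (edgeR quasi-likelihood test, adjusted p over 12872 to 13235 genes), where 0% of all genes passed at each, and 2, 6 and 15 members had an unadjusted p under 0.05, as had 6.54%, 11.7% and 12.4% of all genes. In muscle 0 of 100 passed at LP and EL and 0 of 99 at ML, where 0%, 0.00831% and 0% of all genes passed, and 7, 17 and 7 had an unadjusted p under 0.05, as had 6.69%, 11.8% and 7.65% of all genes. DESeq2 called 0, 0 and 1 members in liver and 0, 2 and 0 in muscle at LP, EL and ML. Of all genes it called 0%, 0.0467% and 0.523% for liver, and 0.236%, 0.992% and 0.199% for muscle. The smallest adjusted p in liver was that of HMGCS1 at ML, 0.22, with a log2 fold change of 1.09 ± 0.29 (SE) in Fert+ relative to Fert-. Liver HMGCS1 at ML had a median of 700 CPM in Fert+ (483 to 1228) and 363 CPM in Fert- (142 to 734), ranges that overlapped.

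The response to calving itself was then compared between genotypes, as EL minus the mean of LP and ML in Fert+ minus the same in Fert-. This fit had no term for the cow, although the libraries of a cow are paired. In liver 0 of 100 members passed (0% of 13815 genes), and 8 had an unadjusted p under 0.05, all with a lower value in Fert+, where 10.8% of all genes had one. The members' median was -0.32 against -0.003 for all genes. Without cow 3847 the members' median liver fall was 0.36 in Fert+ and 0.38 in Fert-, against 0.58 and 0.38 with it. In muscle 2 of 100 members passed, where 0.0552% of 12675 genes did. The rule averages over genotypes and so also admits genes with a large rise in a single genotype, and this count is not free of the choice. For RNF144B the mean muscle rise was 1.26 in Fert+ and 0.21 in Fert-.

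RNF144B, an E3 ubiquitin ligase, had a muscle median in Fert+ cows of 113 CPM at LP (90.3 to 177), 260 at EL (207 to 423) and 120 at ML (84.2 to 128). In Fert- cows the medians were 140 (105 to 242), 146 (107 to 257) and 112 (92.3 to 182). The Fert+ EL libraries lay above all Fert+ libraries of the other time-points, and the Fert- time-points overlapped. Its rise was present in 8 of 8 Fert+ cows and in 4 of 8 Fert- cows, and the responses differed by 1.22 ± 0.22 (log2, SE, adjusted p = 0.013, edgeR). In liver RNF144B was lower at EL than at LP in 13 of 16 cows and lower than at ML in 10.

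ATP6V0A1, a subunit of the proton pump that acidifies lysosomes, went the other way. Its muscle median in Fert+ cows was 43.9 CPM at LP (35.2 to 51.6), 65.9 at EL (45.3 to 86.6) and 37.8 at ML (32.1 to 46.8), and in Fert- cows 46.0 (38.7 to 54.5), 124 (72.6 to 287) and 42.1 (34.9 to 47.6). All 16 cows rose, and the rise was larger in Fert- by a log2 difference of -0.91 ± 0.18 (adjusted p = 0.015, edgeR). Without cow 3847 this difference was -0.88 and the adjusted p 0.074 (edgeR), so ATP6V0A1 no longer passed. RNF144B stayed called (adjusted p = 0.028, 0.0236% of all genes called). All 5 muscle libraries of the 13-library subset were from Fert- cows, and without them the adjusted p were 0.043 for RNF144B and 0.033 for ATP6V0A1.

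**Figure D5:**
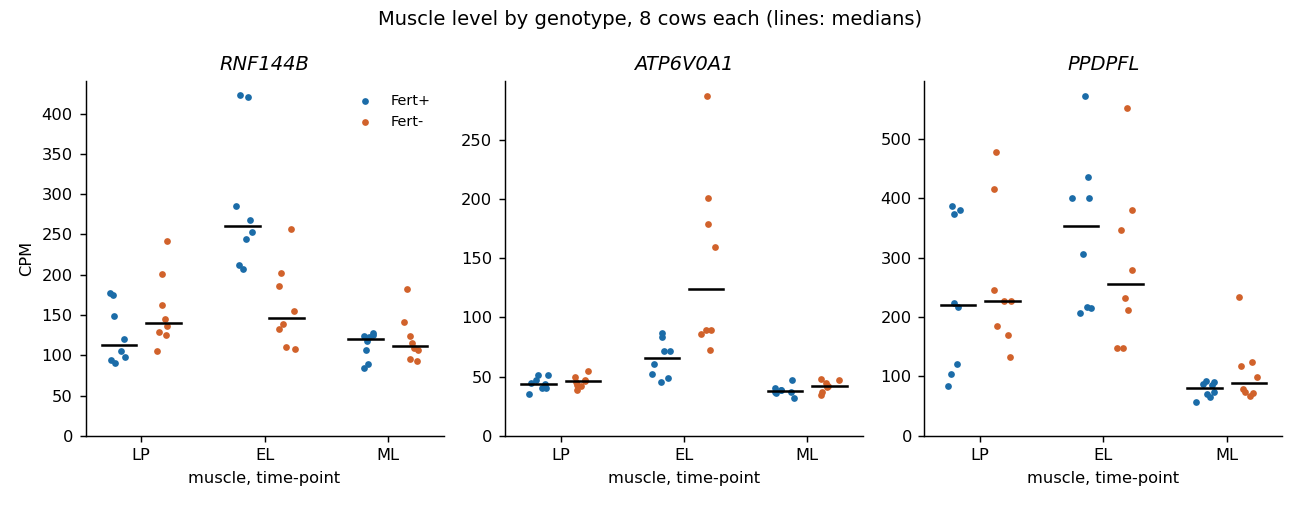
Muscle level in CPM (y axis, from 0) of RNF144B, ATP6V0A1 and PPDPFL at LP, EL and ML in 8 Fert+ (blue) and 8 Fert- (orange) cows, with lines at the medians. RNF144B at EL has a median of 260 CPM in Fert+ and 146 in Fert-, ATP6V0A1 65.9 and 124, and PPDPFL is lowest at ML in both genotypes.

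ML was then compared with LP in the members. In each tissue this contrast corresponds to the difference of 2 of the values that the rule used. The same libraries entered the rule, which favours genes with LP and ML both away from EL. The counts in both tissues are therefore shaped by the choice, and they cannot show whether the members returned to their level of late pregnancy. In liver 0 of 100 members passed, where 12.5% of 13815 genes did (7.41% higher, 5.05% lower). An unadjusted p under 0.05 was found for 7 members and for 26.6% of all genes. ABCC5, an exporter of cyclic nucleotides, came nearest, with 13.8 CPM at LP and 26.3 CPM at ML as medians and a log2 fold change of 0.74 ± 0.26 (adjusted p = 0.051, edgeR). Liver calls were 1 with the cow as a block (15.7% of all genes), 2 with DESeq2 (14.7%) and 2 without cow 3847 (12.5%).

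In muscle 10 of 100 members passed, 2 higher and 8 lower at ML, against 6.08% of 12675 genes (2.46% higher, 3.62% lower). This count and the adjusted p that follow are shaped by the choice, as in liver, and serve as description only. PPDPFL had a muscle median of 225 CPM at LP (83.3 to 479), 293 at EL (148 to 572) and 82.8 at ML (57.4 to 234), and was lower at ML by -1.39 ± 0.22 (adjusted p = 8.2e-05, edgeR). PDK4 was lower by -0.92 ± 0.27 (adjusted p = 0.027), FAM210B by -0.45 ± 0.13 (adjusted p = 0.023) and the tetraspanin CD81 by -0.32 ± 0.09 (adjusted p = 0.021). ALAD, an enzyme of haem synthesis, was higher by 0.35 ± 0.11 (adjusted p = 0.045). Muscle ALAD had medians of 29.9, 46.7 and 35.4 CPM at LP, EL and ML. With the cow as a block 17 members passed, against 9.68% of all genes. Without cow 3847, 8 passed against 5.06%, and the adjusted p of PDK4 was 0.061 and that of ALAD 0.082.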

How the data were processed

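The authors deposited read-pair counts per Ensembl70 gene (UMD3.1) for each of 96 libraries, without normalization. Trimmomatic was used for trimming, STAR for alignment and featureCounts for counting of proper pairs. A further 96 count columns without sample names, in tables of the whole series, were not used. CPM, log2(CPM + 1) and the 4 values of the rule were computed here from the counts. The members, the gene lists and the tests were chosen with earlier results of these data known. Tests used edgeR 4.0.16 (quasi-likelihood, robust, two-sided, TMM, filterByExpr, Benjamini-Hochberg, threshold 0.05) under R 4.3.3 with limma 3.58.1, and DESeq2 1.42.0 as an alternative. Tables were made with Python 3.11.15, pandas 2.3.3, numpy 2.4.6, scipy 1.17.1 and matplotlib 3.10.9. The fits were tested on simulated counts.

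Cow numbers in the labels pair the libraries, and same-cow residuals correlated above 0.1 in 39 of 48 liver and 42 of 48 muscle pairs. The main fits across time-points nevertheless had no term for the cow, and the cow as a block was used as an alternative. A subset of 13 libraries (8 liver, 5 muscle), inferred from the counts and of unknown origin, held counts at 11 or more of 19 genes that were nearly empty in the others (at most 3). Of 336 pairs of libraries within a condition none agreed within sampling noise (lowest chi-square per gene 14.8). The named genes were, among members with a symbol, the 25 with the largest minimum, up to 4 members of each list, the 5 called members with the smallest adjusted p of each test, and the genes on either side of the threshold. Other members named beside them were chosen after their values were seen. Symbols came from the study's tables, updated with RefSeq (ARS-UCD2.0), which was used for names only. Results for some genes are not reported here. Positions and sequences are not given and promoter motifs were not searched.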

Additional observations from a re-analysis of the deposited data

Results flagged for a closer look

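Within 168 groups of 8 cows (14 members by tissue, time-point and genotype) 22 values stood apart, by the gap to the nearest cow relative to the range of the group (Dixon's criterion at the 95% level). Chance meets it in about 1 group in 20 if values are normally distributed. CPM values need not be, so the 22 cannot be held against that rate. The following values are CPM. Cow 426 had 839 for PDK4 in liver at LP (the other 7 cows 61.9 to 203), 3407 for CAT in liver at LP, 19.7 for STRIP2 in liver at EL and 11.4 for HMGCS1 in muscle at LP. Cow 3434 had 275 and 279 for PDK4 in liver at LP and EL, 115 for SLC27A6 in muscle at EL and 65.0 for MID1IP1 in liver at ML. Cow 430 had 3163 for CAT and 368 for HSD17B4 in liver at LP and 129 for GSTM3 in muscle at LP. Cow 164 had 243 for GSTM3 in liver at LP and 169 for HSD17B4 in liver at EL. Cow 996 had 554 for PDK4 in liver at EL and, in muscle at ML, 194 for MID1IP1 and 234 for PPDPFL. Cow 33 had 7.74 for ADM in muscle at ML. Cow 1179 had 372 for GSTM3 and 221 for AOX1 in muscle at EL. Single flags were 43.7 for STRIP2 in muscle at LP in cow 3847, 21.99 for SLC27A6 in muscle at ML in cow 782 and 1084 for AOX1 in liver at ML in cow 829.

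In the edgeR interaction test the muscle response to calving differed between the genotypes for RNF144B, by 1.22 on the log2 scale (larger in Fert+). For ATP6V0A1 the difference was -0.91 (larger in Fert-), and this gene no longer passed without cow 3847. The fit had no term for the cow, although the libraries of a cow are paired. The rule also admits genes with a large rise in a single genotype, so these calls are not free of the choice.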

How the results depend on the processing

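Of the 100 members, 48 were chosen again with TMM factors and 48 with RLE factors, 55 with the median over cows, 56 without the 13-library subset, 58 on Fert+ cows and 46 on Fert- cows. Leaving out each cow in turn gave 63 to 93, lowest without cow 3847. With TMM the smallest of the 4 values turned negative for SC5D (-0.0040), ACAA2 (-0.073), ALAD (-0.074), HADH (-0.083), ENOSF1 (-0.030), RNASE4 (-0.042) and HMGCS1 (-0.088), and with RLE for SC5D (-0.015), ACAA2 (-0.075), ALAD (-0.075), HADH (-0.085), ENOSF1 (-0.032), RNASE4 (-0.053), HMGCS1 (-0.090) and SAT1 (-0.0062). Without the 13-library subset that of ABCC5 was -0.011. Genes chosen on Fert+ cows with all 4 values above 0 in Fert- cows numbered 53 with TMM.

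With the cow as a replicate block, 18 list genes in place of 32 passed in liver between EL and LP (6 without cow 3847 and 0 without the 13-library subset), and members called between ML and LP numbered 1 in liver and 17 in muscle. Liver calls between ML and LP were 2 with DESeq2, 5 without the 13-library subset and 2 without cow 3847. For Fert+ against Fert-, a common dispersion called 2 members at EL, 2 at LP and 3 at ML in liver, and 11, 4 and 4 in muscle. DESeq2 called 1 in liver at ML and 2 in muscle at EL. No share over all genes is given for the common dispersion or for the 5 liver calls. These counts can therefore not be read as particular to the members. Without cow 3847 the muscle genotype-by-calving count was 1. ALAD in muscle between ML and LP also missed the threshold with RLE factors (adjusted p = 0.051), without the gene filter (0.055) and without the 13-library subset (0.11), by edgeR. The runs without cow 3847, and those of the list genes and of the genotype-by-calving response without the 13-library subset, were chosen after seeing the data. In liver the runs without this cow and without the subset overlap, as its EL and ML libraries belong to the subset. The causes of these changes were not tested.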
